A study of Mus musculus with 4 samples.

Results

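The transcriptome described here is that of mouse induced regulatory T cells (induced Treg cells) on day 3 of culture, as measured in the 2 RNA-seq libraries labelled WT. Its members are the gene symbols listed in both libraries, leaving out entries whose estimate had failed, with the highest entry taken where a symbol was repeated. There were 22139 such symbols, of which 10229 (46.2%) reached 1 FPKM or more in both libraries. The choice rested on the labels and on this level, so that the levels below are a description and carry no test. FPKM, the number of fragments scaled to the length of the transcript and to the mapped fragments of the library, is a level per length, so that levels of different genes can be set side by side. Values are written in the order WT 1, WT 2.

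The series held 4 libraries of C57BL/6 mouse cells, 2 labelled WT and 2 labelled MSC KO, the latter named for a knockout of musculin, a transcription factor of the basic helix-loop-helix class (gene Msc). Naive T cells had been sorted from mice of each genotype and cultured for 3 days with TGF-beta (2 ng/ml) on plates coated with anti-CD3 and anti-CD28 antibodies (1 µg/ml). All 4 libraries share this stimulus, and the samples used here include no unstimulated cells, no cells cultured without TGF-beta and no Treg cells taken directly from an animal. The labels give neither the age or sex of the mice nor whether the replicates were separate animals, cultures or preparations.

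Treg cells are CD4 T cells that restrain other immune cells. They depend on Foxp3, an X-linked forkhead transcription factor, and carry a high-affinity interleukin 2 (IL-2) receptor, the inhibitory receptor CTLA-4 and the costimulatory receptor GITR. When the T cell receptor and CD28 are triggered in the presence of TGF-beta, SMAD factors act together with NFAT and STAT5 to switch on Foxp3 in naive cells. The same stimulus drives growth, glycolysis and division.

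Markers of the cell type in the label were read first. All 5 marker genes of Treg cells were above 1 FPKM in both libraries, a level that 46.2% of all symbols reached. With no cells cultured without TGF-beta among the samples used, these levels do not test the label. Tnfrsf18, which encodes GITR, was at 567 and 572 FPKM (mean 569.5 ± 3.45 SD, n = 2) and Il2ra, the alpha chain of the IL-2 receptor (CD25), at 302 and 317 FPKM (309.5 ± 10.5 SD, n = 2). Ctla4 was at 112 and 119.6 FPKM (116 ± 5.35 SD, n = 2) and Foxp3 at 62.8 and 66 FPKM (64.4 ± 2.21 SD, n = 2). Ikzf2, which encodes Helios, a factor often used to mark thymus-derived Treg cells, was lowest at 9.38 and 9.91 FPKM (9.64 ± 0.369 SD, n = 2). The order of the 5 was the same in both libraries, and no neighbours in it overlapped. Within a library, Tnfrsf18 ranked 175 and 174, Il2ra 318 and 307, Ctla4 852 and 821, Foxp3 1502 and 1447 and Ikzf2 6178 and 6108. Foxp3 lay on chromosome X, with its locus given as 7135687 to 7182546 (mm9).

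Msc was under 1 FPKM in every library and lower in those labelled WT, the reverse of the order that the genotype labels imply. It was at 0.0243 and 0.0178 FPKM in the libraries labelled WT, below the 0.0588 and 0.0427 FPKM that 3 fragments on a transcript of 2000 bases give, and at 0.331 and 0.939 FPKM in the libraries labelled MSC KO. The authors had not tested this entry in the pair of WT 1 and MSC KO 1. The genotype of the libraries was not tested here, and what follows is about those labelled WT.

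Most markers of other blood cells were low, with Nkg7 as the main exception. Of 7 B cell markers 1 reached 1 FPKM in both libraries, Cd79b at 6.67 and 5.94 FPKM, while Cd79a was at 0.368 and 0.705 FPKM and Pax5 was listed at 0; the 7 summed to 7.44 and 7.03 FPKM. Of 8 myeloid markers only Cd68 (1.35 and 1.39 FPKM) reached it, with a sum of 2.56 and 1.8 FPKM. Of 6 mast cell and basophil markers only Kit did (10.2 and 9.81 FPKM), and the other 5 were listed at 0, while of 5 dendritic cell markers only Zbtb46 did (2.58 and 2.61 FPKM) and Clec9a was listed at 0. None of 3 erythroid and 4 megakaryocyte markers did. Both CD8 genes were present, Cd8b1 at 9.75 and 9.75 FPKM and Cd8a at 1.58 and 1.9 FPKM, against 173 and 189 FPKM for Cd4. Among 4 natural killer cell markers, Nkg7 was at 288 and 303 FPKM and Klrd1 at 4.52 and 5.56 FPKM, and Ncr1 and Klrb1c were listed at 0. Of 6 stroma markers 4 reached 1 FPKM. Col1a1, a chain of type I collagen, was at 31 and 21.6 FPKM, Col1a2 at 16 and 10.4 FPKM and Col3a1 at 2.4 and 1.77 FPKM, each higher in WT 1. Pecam1, found on endothelial and some blood cells, was at 6.5 and 6.77 FPKM, while Pdgfrb was at 0.556 and 0.426 FPKM and Cdh5 of endothelial cells was listed at 0. The part of other cells in these values was not tested. In RNA from a whole culture, a low level in every cell and a high level in a few cells cannot be told apart.

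Depth, read from the step that 1 fragment makes in low values, was 25500000 fragments in WT 1 and 35200000 in WT 2. At these depths 1 FPKM on a transcript of 2000 bases corresponded to 51 and 70.3 fragments, a counting error of 14.0% and 11.9%. The 2 libraries agreed closely. Over the 10229 symbols, which are genes and not independent replicates, the median difference was 0.07 on the log2 scale (1.05-fold), and the Pearson r of log2 FPKM was 0.99. The spread shrank from 0.11 for genes with a mean of 1 to 10 FPKM to 0.06 at 10 to 100 and 0.04 above. After centring, in genes with a single annotated transcript, the spread between the libraries labelled WT was 1.53 (n = 378 genes at 1 to 10 FPKM), 1.56 (n = 243 at 10 to 100) and 2.53 times (n = 56 at 100 or more) what counting error alone gives. In the same classes the 2 libraries labelled MSC KO were 3.66, 6.35 and 9.05 times counting error apart. The labels do not say why the first pair lay closer, and the spread between WT 1 and WT 2 may be technical.

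Levels ranged from 0 to 12531 FPKM. Of the 22139 symbols, 6387 (28.8%) were listed at 0 in both libraries and 5198 others stayed under 1 FPKM in both. Another 325 reached 1 FPKM in one library only. At the other end, 5917 (26.7%) reached 10 FPKM, 942 (4.25%) reached 100 FPKM and 114 reached 1000 FPKM in both. The median of symbols at 1 FPKM or more was 13.4 FPKM in WT 1 and 13.8 FPKM in WT 2.

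**Figure D1:**
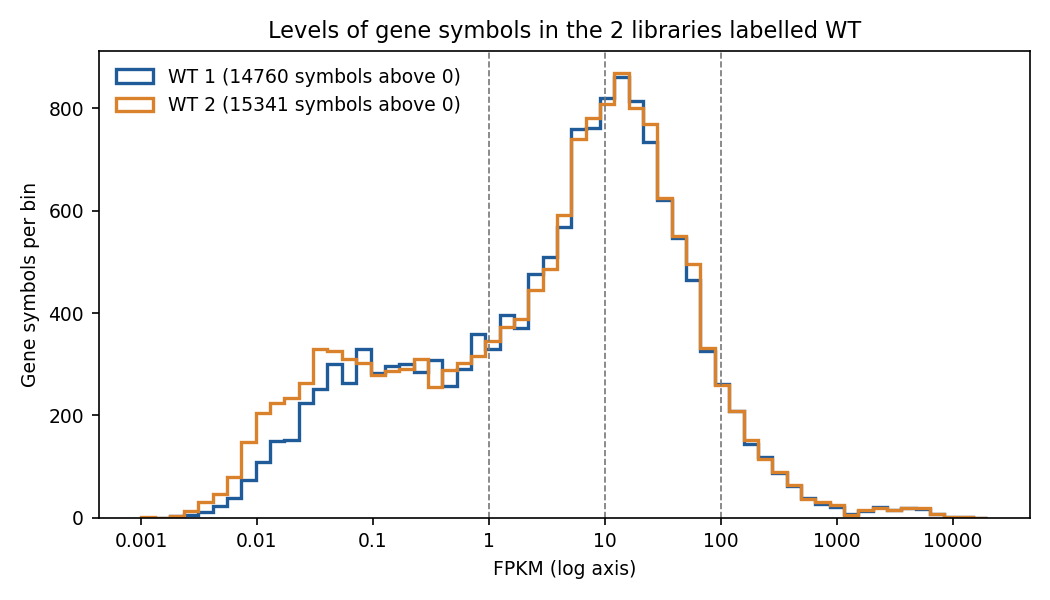
Number of gene symbols per bin of FPKM (log axis) in WT 1 (blue) and WT 2 (orange), with dashed lines at 1, 10 and 100 FPKM. Both libraries show a main peak around 10 FPKM and a broad shoulder under 1 FPKM; symbols listed at 0 are not drawn.

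Transcripts of the protein synthesis machinery held much of the FPKM on named genes in both libraries. Of the 20 highest genes, small RNA entries and unnamed clones aside, 17 encode ribosomal proteins. Rplp1, a protein of the ribosomal stalk, led both libraries at 12531 and 12525 FPKM, followed by Rpl41 at 9365 and 9267 FPKM. The others were Eef1a1, the elongation factor that brings aminoacyl-tRNA to the ribosome (7998 and 8258 FPKM), Tmsb4x, the actin-binding thymosin beta 4 (7375 and 7228 FPKM), and Tpt1p, the listed symbol of a translationally controlled protein gene (7146 and 7309 FPKM). Of 84 symbols of cytosolic ribosomal proteins 81 reached 1 FPKM, with a median of 3433 and 3524 FPKM, and together they made up 37.7% and 37.3% of all FPKM on named genes. Rpl3l, a form of muscle, was at 0 and 0.0207 FPKM. Ribosomal protein genes have many near-identical processed copies in the genome, among which the counting may have split fragments, so single levels are uncertain. The 100 highest symbols held 49.3% and 48.4% of the FPKM on named entries and the 1000 highest 78.0% and 77.5%. Entries with no gene symbol, left out of these shares, held 49.9% and 52.2% of all FPKM. FPKM is a level per length, so a share of it is not a share of fragments.

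Many transcripts of this machinery start with a C followed by a run of pyrimidines, the feature through which mTOR tunes their translation. A stretch of 5 or more pyrimidines opening with C, beginning in the window from 5 bases before to 10 bases after the annotated start, was found in 43.4% of the 53 ribosomal protein genes with a single promoter in the RefSeq table (GRCm38.p6), against 18.3% of all 32851 promoters in it. Such a stretch was in 24.8% of the 569 genes at 100 FPKM or more with a single promoter, and in 18.7% of all 12477 genes with one. The runs of genes among the 20 highest are shown over 40 bases, from 20 before to 20 after the start. Letters are in lower case with the run in capitals, and only genes with a run are shown.
Eef1a1, chr9:78481705-78481744, minus strand: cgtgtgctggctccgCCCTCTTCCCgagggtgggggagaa
Rpl39, chrX:37085203-37085242, minus strand: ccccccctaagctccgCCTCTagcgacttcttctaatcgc
Rps2, chr17:24720043-24720082, plus strand: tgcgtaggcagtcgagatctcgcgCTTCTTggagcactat
Rpl38, chr11:114668560-114668599, plus strand: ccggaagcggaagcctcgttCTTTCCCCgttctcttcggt
Rps27, chr3:90213629-90213668, minus strand: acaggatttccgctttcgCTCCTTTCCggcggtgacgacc
The longest run of the 5 was that of Eef1a1. A letter match is a description and does not show where these transcripts started in the cells sequenced.

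Genes associated with Treg cells beyond the 5 markers were mostly present. Of the 790 distinct genes measured in all lists made by hand, 571 reached 1 FPKM in both libraries, against 46.2% of all symbols. Counts of the lists below are to be set beside these shares. Of the 27 measured in the Treg list, 22 (81.5%) did, and 5 reached 100 FPKM. Highest was Lgals1, the secreted lectin galectin-1 (935 and 900.5 FPKM), then Capg, an actin-capping protein (495 and 493 FPKM), and Folr4, the folate receptor 4 of Treg cells (296 and 307 FPKM). Tnfrsf9, the costimulatory receptor 4-1BB, was at 274 and 277 FPKM, Tgfb1 at 198 and 199 FPKM, and Socs2, an inhibitor of cytokine signals induced by STAT5, at 81 and 86.5 FPKM. Lrrc32, which encodes GARP, the protein that holds latent TGF-beta on the Treg surface, was at 23.9 and 26 FPKM. Nt5e and Entpd1, the ectoenzymes CD73 and CD39 that turn ATP into adenosine, were at 17.6 and 16.9 and at 7.15 and 7.54 FPKM. Nrp1 was at 6.46 and 6.8 FPKM and Itgae (CD103) at 3.58 and 3.99 FPKM.

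The other 5 genes of this list stayed under 1 FPKM in both libraries. Il10, the suppressive cytokine, was at 0.478 and 0.468 FPKM, Fgl2, a secreted suppressor, at 0.418 and 0.363 FPKM, and Il12a, a subunit of IL-35, at 0.261 and 0.330 FPKM. Prdm1, which encodes Blimp-1, was at 0.0962 and 0.173 FPKM, and Klrg1 was listed at 0 in both. Ebi3, the other subunit of IL-35, stood apart from Il12a at 28 and 29.96 FPKM. Tnfrsf4 (OX40) had no value comparable in both libraries: its entry was joined with that of the neighbouring Sdf4 in the table of WT 1, at 468 FPKM, and stood alone in WT 2 at 374 FPKM.

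Promoters of the highest markers are shown from 180 bases before to 20 after the annotated start, with CpG dinucleotides in capitals, beside that of Pcna, the sliding clamp of DNA replication, at a level near that of Tnfrsf18. They are shown because these promoters, of genes at high levels, differ in CpG content.
Il2ra, chr2:11642612-11642811, plus strand: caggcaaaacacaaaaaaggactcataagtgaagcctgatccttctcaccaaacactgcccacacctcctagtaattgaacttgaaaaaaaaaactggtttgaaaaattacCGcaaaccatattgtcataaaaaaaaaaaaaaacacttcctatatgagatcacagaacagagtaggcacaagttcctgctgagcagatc
Tnfrsf18, chr4:156026142-156026341, plus strand: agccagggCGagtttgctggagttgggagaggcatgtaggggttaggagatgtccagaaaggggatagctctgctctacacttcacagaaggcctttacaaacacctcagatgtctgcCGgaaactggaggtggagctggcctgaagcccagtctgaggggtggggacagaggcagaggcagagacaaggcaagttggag
Ctla4, chr1:60908845-60909044, plus strand: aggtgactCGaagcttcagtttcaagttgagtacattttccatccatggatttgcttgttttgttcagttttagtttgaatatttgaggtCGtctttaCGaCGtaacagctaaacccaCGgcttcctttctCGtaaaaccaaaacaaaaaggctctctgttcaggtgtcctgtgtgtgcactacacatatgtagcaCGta
Pcna, chr2:132253161-132253360, minus strand: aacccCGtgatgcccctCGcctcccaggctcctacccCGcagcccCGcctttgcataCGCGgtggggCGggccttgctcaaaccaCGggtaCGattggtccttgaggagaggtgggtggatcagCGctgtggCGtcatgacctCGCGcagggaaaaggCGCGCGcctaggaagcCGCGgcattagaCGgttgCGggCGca
The 200 bases held 1 CpG in Il2ra, 2 in Tnfrsf18 and 7 in Ctla4, against 21 in Pcna, which was at 534 and 559 FPKM. Across the transcriptome, promoters of higher genes were richer in CpG. The median per 300 bases was 2 for the 3779 matched genes listed at 0, 11 for 2746 genes under 1 FPKM, 21 for 2370 genes at 1 to 10 FPKM, 23 for 2869 genes at 10 to 100 FPKM and 22 for 569 genes at 100 FPKM or more. The median rose from genes listed at 0 to those under 1 FPKM and again to those at 1 to 10 FPKM, and the 3 classes from 1 FPKM up were within 2 CpG of each other. Genes with 15 or more CpG were 10.1% of the class at 0, 40.9% of that under 1 FPKM, 72.7% at 1 to 10 FPKM and 80.5% of the highest class, and 34.6% of all promoters in the table.

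Lineage factors of other helper subsets were found beside Foxp3. Of 20 factors 14 reached 1 FPKM in both libraries, against 46.2% of all symbols. Of all genes of the lists made by hand, 571 of 790 did. Irf4, a factor induced by T cell receptor signals, was level with Foxp3 at 63.1 and 65.9 FPKM, and their ranges overlapped. The core-binding factors that act with Foxp3 followed, Cbfb at 55.8 and 55.9 FPKM and Runx3 at 42.5 and 42.7 FPKM, with Runx1 lower at 8.09 and 7.84 FPKM. Batf, the partner of Irf4, was at 25.2 and 27.5 FPKM and Zbtb7b (ThPOK), which holds the CD4 fate, at 26.7 and 25.2 FPKM. Gata3, the factor of Th2 cells, was at 22.7 and 22.1 FPKM, and Tbx21 (T-bet), the factor of Th1 cells, at 18.3 and 18.5 FPKM. Both were more than 10 times as high as Bcl6 (0.857 and 0.641 FPKM), the factor of follicular helper cells. Rora, a nuclear receptor, was at 1.62 and 1.93 FPKM, Maf at 1.73 and 1.5 FPKM and Ahr, the aryl hydrocarbon receptor, at 5.9 and 6.39 FPKM. Ascl2, Hlx and Prdm1 stayed under 1 FPKM in both, and so did the myeloid factor Sfpi1 (PU.1).

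**Figure D2:**
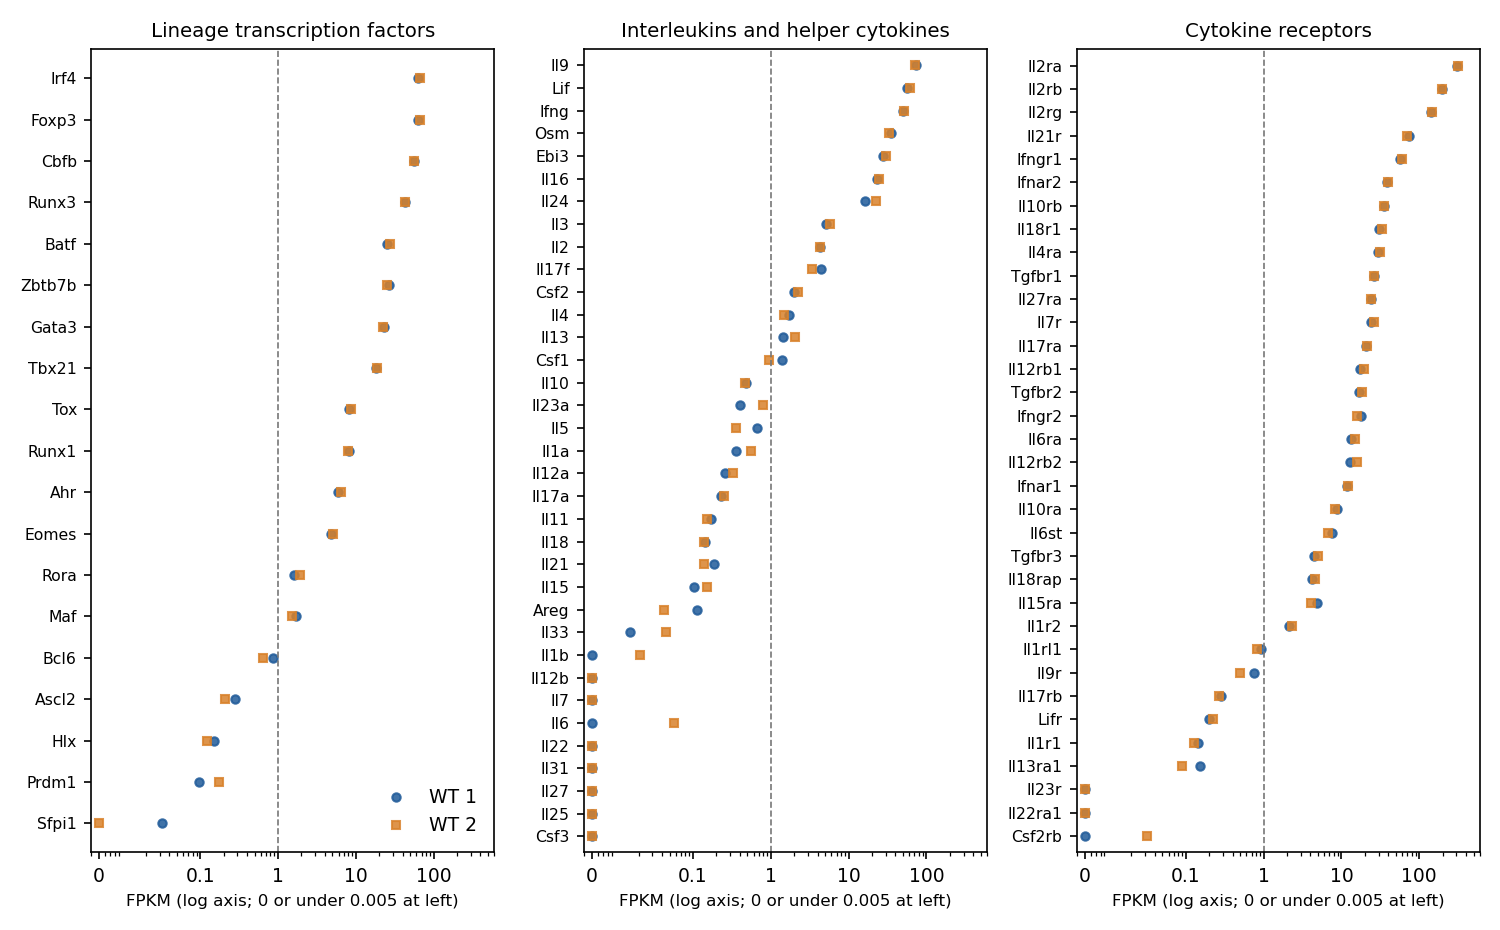
FPKM in WT 1 (circles) and WT 2 (squares) on a log axis, with 1 gene a line, for 19 of the 20 lineage factors, 35 cytokines and 34 cytokine receptors; the dashed line is 1 FPKM and values of 0 are drawn at the left edge. The symbols of the 2 libraries lie on each other for most genes above 1 FPKM, with 14 factors, 13 cytokines and 25 receptors to the right of the line in both libraries.

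Factors of the naive state were present on day 3. No unstimulated cells were among the samples used, so a change from the naive cells was not tested. Of 14 genes of naive and stem-like T cells 13 reached 1 FPKM, the exception being Klf4 at 0.461 and 0.420 FPKM. Ccr7, the receptor that guides cells into lymph nodes, was at 221 and 229 FPKM, Tcf7 (TCF-1) at 97 and 98.5 FPKM and Lef1 at 55.1 and 57.1 FPKM. Klf2, a factor of quiescence that drives homing genes, was at 56.7 and 53 FPKM, and its target S1pr1 was at 19.5 and 21.1 FPKM. Foxo1, which also drives Klf2 and Il7r, was at 27.8 and 26.8 FPKM, and Bach2 at 7.59 and 8.51 FPKM.

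The Ikaros family and the E protein group, to which musculin is related, were read for their order. Ikzf1 was highest of its family at 63.7 and 65.6 FPKM, and Ikzf4 (Eos), a partner of Foxp3, was above Ikzf2 at 16.9 and 17.2 FPKM. Ikzf3 was at 6.65 and 7.1 FPKM and its range overlapped that of Ikzf5 (6.52 and 7.41 FPKM). Bhlhe40 led the basic helix-loop-helix list at 129 and 134 FPKM, ahead of the E protein gene Tcf3 (E2A, 58.4 and 58.4 FPKM). The inhibitors of E proteins followed, Id3 at 40.5 and 42.6 FPKM, Id2 at 31 and 33.6 FPKM and Id1, a target of BMP and TGF-beta signals, at 15.6 and 17.1 FPKM. Id4, Msc and Tal1 stayed under 1 FPKM in both libraries.

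Signal transducers of the culture's cytokines were at moderate levels. Of the STAT factors, Stat5b was at 58.6 and 61.1 FPKM, Stat6 at 54.6 and 58 FPKM and Stat5a at 48.8 and 51.4 FPKM, while Stat4, which acts after IL-12, was at 17.9 and 18.5 FPKM. Stat3 was left out because the authors' estimate had failed in the table of WT 1; WT 2 listed it at 108 FPKM. All 8 SOCS genes were present, led by Socs1 (192 and 186 FPKM) and Cish (146 and 152 FPKM), feedback inhibitors that STAT5 induces. Socs3, the inhibitor tied to STAT3, was far lower at 9.83 and 9.62 FPKM. Among the SMAD factors of TGF-beta signalling, the shared Smad4 was at 19.3 and 19.6 FPKM and Smad2 at 17.5 and 18.5 FPKM. Smad3 was lower than Smad2 in both libraries at 2.81 and 3.29 FPKM, and the inhibitory Smad7 was at 7.51 and 7.3 FPKM.

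Of 25 factors induced by activation 21 reached 1 FPKM. Junb was at 360.0 and 360.0 FPKM and Jund at 173 and 166 FPKM, the AP-1 members that pair with Batf, against 32.6 and 30.7 FPKM for Jun. Irf8, better known from myeloid and B cells, was at 252 and 254 FPKM, above Irf4. Nfkb1 was at 123 and 124 FPKM, Nfkb2 at 95 and 94.3 FPKM and Myc, the driver of growth, at 104 and 109.8 FPKM. Nr4a3 and Nr4a1, immediate targets of the T cell receptor, were at 70.7 and 70.5 and at 65.8 and 66.4 FPKM. The Fos genes were low by comparison: Fosl2 was at 4.64 and 4.76 FPKM, Fos at 0.819 and 1.02 FPKM, Fosb at 0.341 and 0.223 FPKM and Fosl1 at 0.262 and 0.190 FPKM. Mycn was at 0.0807 and 0.0825 FPKM.

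Receptors of the cell surface were next. All 17 genes of the T cell receptor complex and its nearby kinases reached 10 FPKM and 9 reached 100 FPKM. Cd2 was highest at 419 and 434 FPKM, then the adaptor Lat (318 and 312 FPKM). The 4 chains of CD3 were not at one level: Cd3d was at 266 and 261 FPKM, Cd3g at 259 and 263 FPKM, Cd3e at 149 and 155 FPKM and Cd247 (the zeta chain) at 109 and 116 FPKM, and only the first pair overlapped. Lck, which starts the signal, was at 247 and 256 FPKM, and Zap70, which takes it on, at 83.5 and 82.4 FPKM.

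Of 21 costimulatory and inhibitory receptors 17 were present, against 46.2% of all symbols, with Ctla4 ahead of all other receptors of the list. Its relatives Icos and Cd28 were at 39.4 and 41 and at 31.8 and 33.4 FPKM. Lag3 was at 34.8 and 36.1 FPKM, Pdcd1 (PD-1) at 19.1 and 20.1 FPKM and Tigit at 8.06 and 7.77 FPKM, while Havcr2 (TIM-3) was at 0.0477 and 0.0351 FPKM. Cd80, a ligand of both CTLA-4 and CD28, was at 26.6 and 27.8 FPKM and its partner ligand Cd86 at 2.93 and 2.88 FPKM. Among the 20 measured genes of the TNF receptor superfamily, which leave out Tnfrsf4, Tnfrsf18 and Tnfrsf9 were followed by Tnfrsf13b (TACI), a receptor known from B cells, at 69.9 and 75.4 FPKM. Tnfrsf1b (TNFR2), known for its role in Treg growth, was at 30.7 and 33 FPKM, and its relative Tnfrsf1a was lower at 11 and 12 FPKM. Tnfrsf8 (CD30) stayed under 1 FPKM (0.481 and 0.333 FPKM).

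The IL-2 receptor led the cytokine receptors with all 3 of its chains. Il2rb was at 197 and 198 FPKM and the common gamma chain Il2rg at 141 and 148 FPKM, behind Il2ra. Il21r was at 72.9 and 70.4 FPKM, Ifngr1 at 57 and 60.6 FPKM and Il4ra at 29.3 and 31.3 FPKM. The receptors of TGF-beta, the cytokine that was added, were lower: Tgfbr1 was at 26 and 26.2 FPKM, Tgfbr2 at 17 and 18.1 FPKM and the coreceptor Tgfbr3 at 4.5 and 4.93 FPKM. Il12rb2, the chain that marks Th1 cells, was at 12.7 and 15.9 FPKM and Il18r1 at 30.7 and 33.3 FPKM. Il6ra was at 13.3 and 14.8 FPKM with its signalling chain Il6st at 7.51 and 6.69 FPKM. In contrast Il23r, the receptor that sustains Th17 cells, was listed at 0 in both libraries, Il1rl1 (ST2) was at 0.926 and 0.811 FPKM and Il1r1 at 0.142 and 0.128 FPKM.

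Of 20 chemokine and homing receptors 11 (55%) were present, near the share of all symbols. Behind Ccr7 came Selplg, the ligand of P-selectin (176 and 178 FPKM), and Ccr8, a receptor of Treg and Th2 cells (70.9 and 74.2 FPKM). Cxcr4 was at 29.1 and 27.9 FPKM, Ccr6 at 24.4 and 27.7 FPKM, Ccr4 at 19.9 and 21.8 FPKM and the gut-homing Gpr15 at 7.33 and 8.15 FPKM. Cxcr3 was at 7.89 and 6.71 FPKM. Ccr9, Ccr2 and Cxcr6 stayed under 1 FPKM and Ccr1 and Ccr3 were listed at 0. Among 17 integrins, 11 were present, against 46.2% of all symbols. Itgb2 was at 176 and 179.8 FPKM, Itgb7 at 87.6 and 85 FPKM and Itgal (the alpha chain of LFA-1) at 51.6 and 53.7 FPKM. Itgax (CD11c) was listed at 0.

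Cytokine genes formed a list with few members present and a wide range. Of 35 interleukin and helper cytokine genes 13 (37.1%) reached 1 FPKM in both libraries, below the 46.2% of all symbols, and 7 were listed at 0 in both. Il9, a cytokine made by T cells exposed to TGF-beta and IL-4, was highest at 73.8 and 72.1 FPKM. Lif and Osm, 2 neighbouring genes of the IL-6 family, were at 56.6 and 62.3 FPKM and 34.9 and 33.5 FPKM, and Ifng, the cytokine of Th1 cells, was at 49.99 and 51.6 FPKM. Il24 differed more between the libraries, at 16.2 and 22.4 FPKM. Il2, the growth factor that Foxp3 represses, was at 4.24 and 4.29 FPKM. The Th17 cytokine Il17f was at 4.4 and 3.39 FPKM and its neighbour Il17a at 0.226 and 0.250 FPKM. Il4 and Il13 of Th2 cells were at 1.71 and 1.46 and at 1.43 and 2.06 FPKM, and Il5 at 0.674 and 0.359 FPKM. Il22, Il12b and Il27 were listed at 0 in both libraries, and Il6 was at 0 and 0.0566 FPKM.

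Several cytokines and their receptors lay far apart in level. Il9 stood beside Il9r at 0.758 and 0.495 FPKM, and Lif beside Lifr at 0.199 and 0.222 FPKM. For Il2 the order was the reverse, with its 3 receptor chains above 100 FPKM and the cytokine under 5 FPKM. Ifng and Ifngr1 were within 10 FPKM of each other in each library, with Ifngr2 at 17.9 and 15.8 FPKM. These levels are those of a whole culture and do not show which cells made or could bind a cytokine.

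Some cytokine genes at quite different levels shared a sequence feature. TATAAA, the letters of a TATA box, lay 40 to 16 bases before the annotated start, on the gene's strand, in 8 of the 21 cytokine genes with a single RefSeq promoter (38.1%), against 1.99% of all promoters in the table and 3.04% of all matched genes. The stretches of 45 bases before the start are shown with the box in capitals, in order of level and with Irf4, a lineage factor whose promoter holds the box too.
Irf4, chr13:30749188-30749232, plus strand: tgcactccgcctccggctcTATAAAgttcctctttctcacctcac
Ifng, chr10:118441001-118441045, plus strand: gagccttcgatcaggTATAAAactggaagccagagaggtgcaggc
Il2, chr3:37125955-37125999, minus strand: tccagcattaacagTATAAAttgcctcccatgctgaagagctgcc
Il17f, chr1:20784271-20784315, minus strand: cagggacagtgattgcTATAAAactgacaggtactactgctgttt
Il13, chr11:53634703-53634747, minus strand: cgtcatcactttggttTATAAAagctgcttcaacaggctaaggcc
Il1a, chr2:129309973-129310017, minus strand: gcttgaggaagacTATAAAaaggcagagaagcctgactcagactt
Il17a, chr1:20730860-20730904, plus strand: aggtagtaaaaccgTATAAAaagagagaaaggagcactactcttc
Areg, chr5:91139554-91139598, plus strand: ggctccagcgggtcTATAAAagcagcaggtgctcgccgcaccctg
Il1b, chr2:129371140-129371184, minus strand: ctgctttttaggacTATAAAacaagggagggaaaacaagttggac
Of the 8 cytokine genes, Ifng, Il2, Il17f and Il13 reached 1 FPKM in both libraries, and Il1a (0.354 and 0.558 FPKM), Il17a, Areg (0.113 and 0.0423 FPKM) and Il1b (0 and 0.0208 FPKM) did not. Of the 13 cytokine genes without the box in that window 5 did. The same letters on either strand anywhere in the 300 bases were in 27.2% of promoters of genes listed at 0 in 11.8% under 1 FPKM, in 6.08% at 1 to 10 FPKM, in 5.82% at 10 to 100 FPKM and in 10.2% at 100 FPKM or more. The cytokine promoters were also poor in CpG, with a median of 4 per 300 bases.

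**Figure D3:**
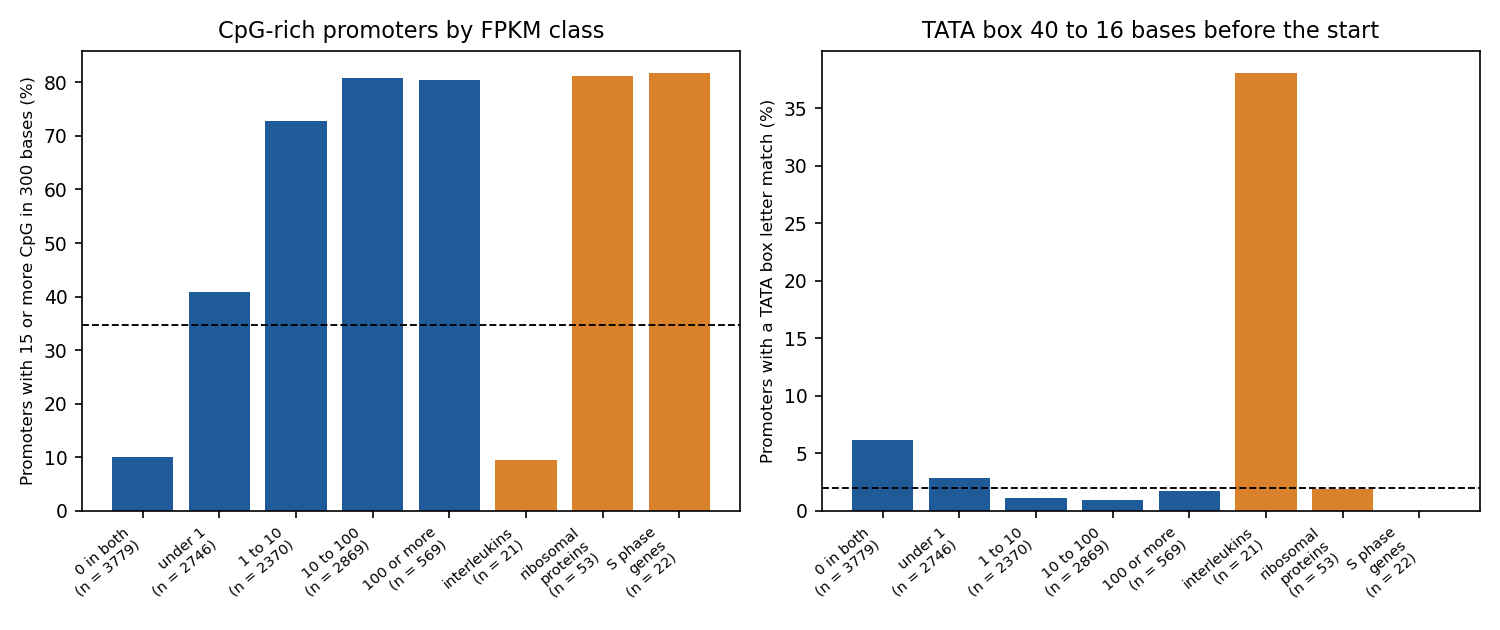
Share of promoters (%) with 15 or more CpG dinucleotides in 300 bases (left) and with TATAAA 40 to 16 bases before the annotated start (right), for 5 FPKM classes (blue) and 3 gene lists (orange); the dashed line is the share of all promoters in the table. CpG-rich promoters went from 10.1% in genes listed at 0 to 80.5% at 100 FPKM or more, and the interleukin list stands out on the right at 38.1%.

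A few ligands of the TNF and TGF-beta families were at high levels. Lta and Ltb, the neighbouring genes of the lymphotoxins, were at 456 and 472 and at 339 and 328 FPKM, with Tnf between them in the genome at 28.1 and 29.3 FPKM. Tnfsf11 (RANKL) was at 39.6 and 39.8 FPKM, Cd40lg at 36.4 and 40.5 FPKM and Fasl at 6.55 and 6.48 FPKM, while Tnfsf18, the ligand of GITR, was listed at 0. Tgfb1 was the one TGF-beta gene at a high level, as Tgfb3 was at 2.46 and 2.1 FPKM and Tgfb2 at 0.172 and 0.226 FPKM. Among 28 chemokine genes 9 (32.1%) were present, led by Ccl4 (67 and 66.6 FPKM), Ccl1, the ligand of CCR8 (24.8 and 31.7 FPKM), Xcl1 (21.6 and 22.7 FPKM) and Ccl3 (21.7 and 21.3 FPKM). Ccl5 was at 4.92 and 3.49 FPKM and Ccl22 at 0.305 and 0.523 FPKM. Granule genes were split: Gzmb was at 63.7 and 67.7 FPKM, Srgn, the proteoglycan of granules, at 125 and 123 FPKM, and Prf1 (perforin) at 0.350 and 0.466 FPKM. Gzma, Gzmc, Gzmk and Gzmm stayed under 1 FPKM in both.

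Several metabolic genes were at high levels. Of 25 genes of glycolysis 18 reached 1 FPKM, near the share of all genes of the lists made by hand (571 of 790). Of the 25, 10 reached 100 FPKM, against 4.25% of all symbols. Ldha, which makes lactate, was highest at 2257 and 2337 FPKM, then Pgk1 (1883 and 1959.9 FPKM), Pkm2, the listed symbol of pyruvate kinase M (1730.0 and 1752 FPKM), Aldoa (1710.4 and 1733 FPKM) and Gapdh (1634 and 1687 FPKM). The first step was lower, with Hk1 at 66.1 and 68.6 FPKM and Hk2 at 20.8 and 20.8 FPKM, and so was phosphofructokinase, with Pfkp at 148 and 149 FPKM and Pfkl at 67.7 and 67 FPKM. The 7 that did not reach 1 FPKM in both included Pgk2 and Ldhc of testis and Pklr of red cells and liver, each listed at 0. Gapdhs, also among the 7, was at 0.251 and 1.08 FPKM. Aldoc and Eno3 were well above this level at 90.7 and 94.6 and at 81.4 and 80 FPKM. Slc2a1 (GLUT1), which brings glucose in, was at 118 and 119.6 FPKM, Slc2a3 at 46.4 and 49.2 FPKM and Slc16a3, which lets lactate out, at 137 and 141 FPKM. Slc7a5 and Slc3a2, the chains of an amino acid transporter, were at 119 and 124 and at 129 and 132 FPKM.

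Oxidative genes were present as well. Of 32 genes of the tricarboxylic acid cycle and pyruvate entry 30 reached 1 FPKM, led by Mdh2 at 362 and 369 FPKM and Sdhb (189 and 191 FPKM). Pdk1 and Pdk3, kinases that hold back pyruvate dehydrogenase, were at 38.1 and 38.4 and at 48.7 and 51.4 FPKM, and Pdk4 at 0.117 and 0.165 FPKM. Of 86 symbols of the respiratory chain and ATP synthase 82 were present, with a median of 237 and 234 FPKM and a share of 3.25% and 3.24% of named FPKM. These symbols were taken by name and include some that are not subunits, such as Ndufaf1 and Cox4nb. In fatty acid oxidation, 18 of 23 genes were present, with Acadl at 78.5 and 81.1 FPKM, Hadhb at 69.6 and 69.2 FPKM and the gatekeeper Cpt1a at 13 and 14 FPKM. Its regulators Ppara and Ppargc1a were at 0.0198 and 0.0175 and at 0 and 0.00863 FPKM.

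Most genes of the biosynthetic lists were present, over a wide range of levels. All 23 genes of nucleotide synthesis were present, led by Impdh2 (327 and 332 FPKM), and 13 of 16 genes of the serine and one-carbon pathway were, led by Phgdh (322 and 322 FPKM), Psat1 (180.1 and 192 FPKM), Shmt2 (140.2 and 141 FPKM) and Mthfd2 (122 and 124 FPKM). Cbs was lowest of these 16 at 0.133 and 0.0862 FPKM. Odc1, which starts polyamine synthesis, was at 252 and 256 FPKM. In sterol and fatty acid synthesis 26 of 28 genes were present, with Scd2 at 418 and 437 FPKM and Fdps at 381 and 371 FPKM. Hmgcs1, an early enzyme of the sterol pathway, was listed at 0. Both of its entries lay on an unplaced part of chromosome 13 in mm9, so this 0 and others like it can come from the mapping and are not read as absence.

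Genes of DNA replication and division were all present. All 32 replication genes reached 1 FPKM, among them Pcna, Mcm6 (167 and 174 FPKM), Mcm7 (134 and 141 FPKM) and Mcm3 (109 and 113 FPKM). The 6 subunits of the MCM helicase ranged from 62.7 and 65.9 FPKM for Mcm2 to the values of Mcm6. All 29 mitosis genes did too: Ube2c was at 409 and 414 FPKM, Birc5 (survivin) at 168 and 170.0 FPKM, Top2a at 143 and 152 FPKM and Mki67 (Ki-67) at 20.4 and 22.2 FPKM. Ccnd3 was the highest D-type cyclin at 306 and 326 FPKM, above Ccnd2 (65.8 and 72.3 FPKM) and Ccnd1 (1.55 and 1.67 FPKM). The inhibitor Cdkn1a (p21) was at 199 and 211 FPKM and Cdkn1b (p27) at 40.3 and 37.6 FPKM. Cdkn2a and Cdkn2b stayed under 1 FPKM.

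**Figure D4:**
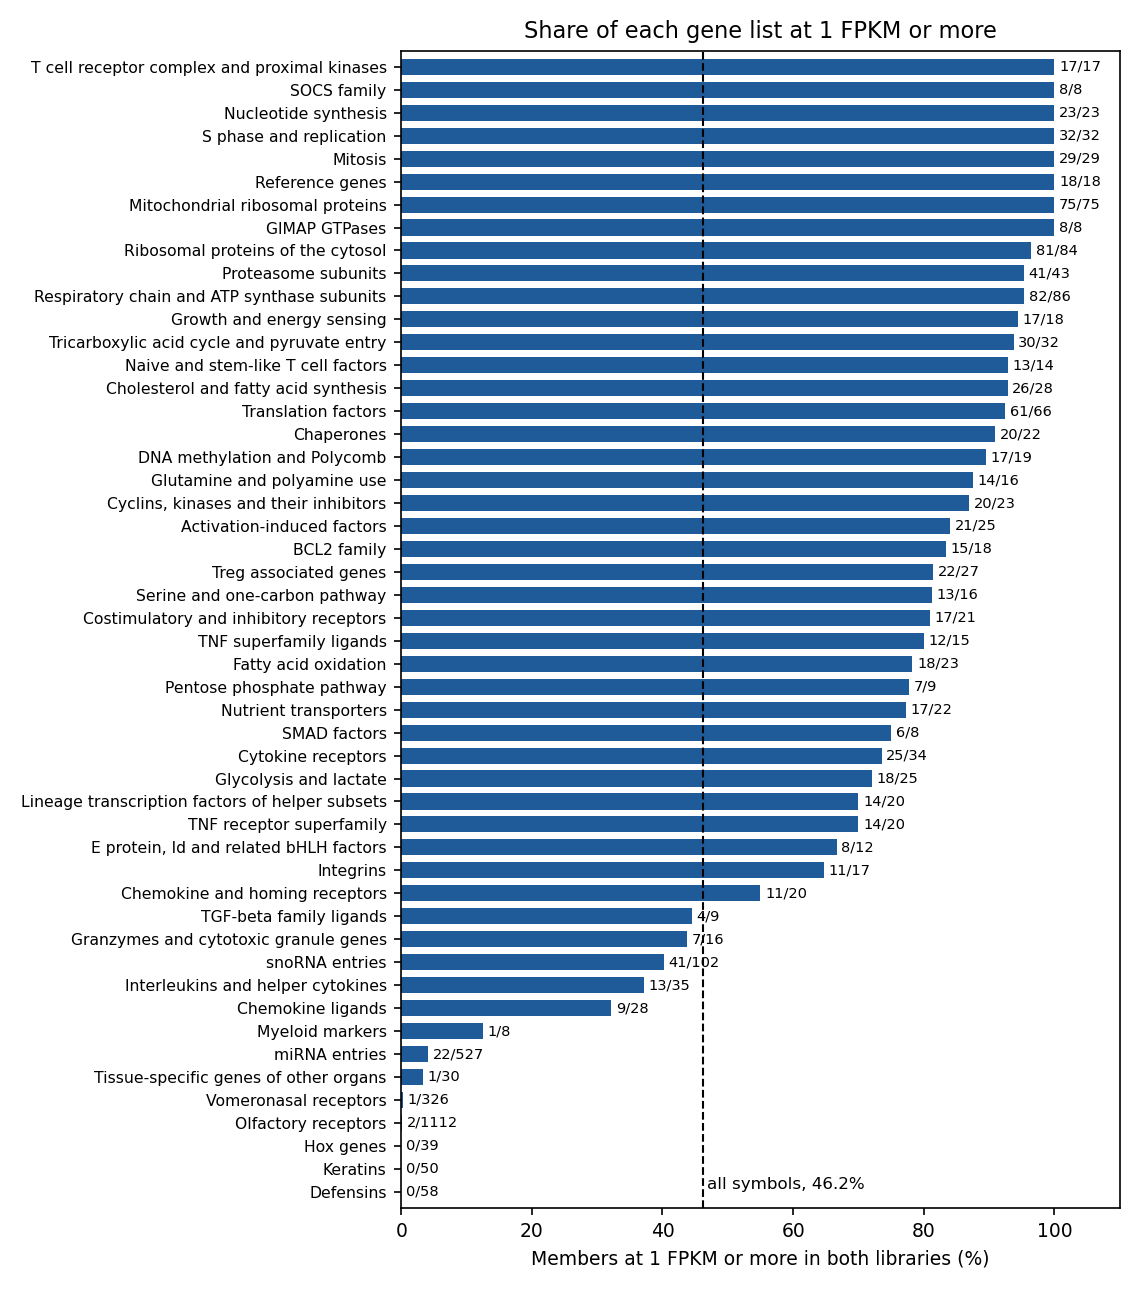
Share (%) of the measured members of each gene list with 8 or more members that reached 1 FPKM in both libraries, with the count beside each bar; the dashed line is the 46.2% of all symbols. Replication, mitosis and nucleotide synthesis genes reach 100%, interleukins and chemokines lie under the line at 37.1% and 32.1%, and olfactory receptors, Hox genes, keratins and defensins are at or near 0.

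Genes listed at 0 or near it included whole families. Of 1112 olfactory receptor genes 2 reached 1 FPKM in both libraries and 1095 were listed at 0 in both. Of 326 vomeronasal receptors 1 reached it, and none did of 39 Hox genes, 50 keratins and 58 defensins. The Hox genes were low rather than at 0, as 7 of the 39 were listed at 0 in both. Of 30 genes specific to other organs 17 were listed at 0 in both, including Alb of liver, Ins2 of the pancreas and Gfap of astrocytes. Mbp, myelin basic protein, was the exception at 19.2 and 19.5 FPKM. Its locus also gives rise to the Golli transcripts, which T cells are known to make, and the tables do not separate the transcripts. Among the autosomes and X, the share of symbols at 1 FPKM or more was lowest on X (326 of 957, 34.1%) and highest on chromosome 11 (883 of 1663, 53.1%).

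Genes also differed in length by class. The longest annotated transcript had a median of 2102 bases for genes listed at 0, 3949 bases at 1 to 10 FPKM and 1958 bases at 100 FPKM or more. Short transcripts were at both ends of the range, and fewer fragments stand behind a given FPKM on a short transcript.

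The few genes that differed between WT 1 and WT 2 limit what can be read from single entries. Of 10229 symbols 66 were more than 2-fold apart. Small RNA entries made up 28 of these, or 39.4% of the 71 at 1 FPKM or more, against 0.374% of the 10158 others. Among named genes with 10 FPKM or more in 1 library, those furthest above WT 1 in WT 2 were Vill (2.26 and 40.7 FPKM), Epc1 (5.54 and 45 FPKM), Cacna1a (1.86 and 11.5 FPKM), Ddx5 (632 and 2356 FPKM) and Ints2 (5.11 and 12 FPKM). Those furthest below were Prmt2 (225 and 8.23 FPKM), Rab11fip5 (23.5 and 0.967 FPKM), LOC100302567 (79.2 and 13.9 FPKM), Znf512b (21.8 and 4.05 FPKM) and Apba3 (57.8 and 17 FPKM). No level of these 10 genes is read further. None of them is a Treg, cytokine or receptor gene of the lists.

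**Figure D5:**
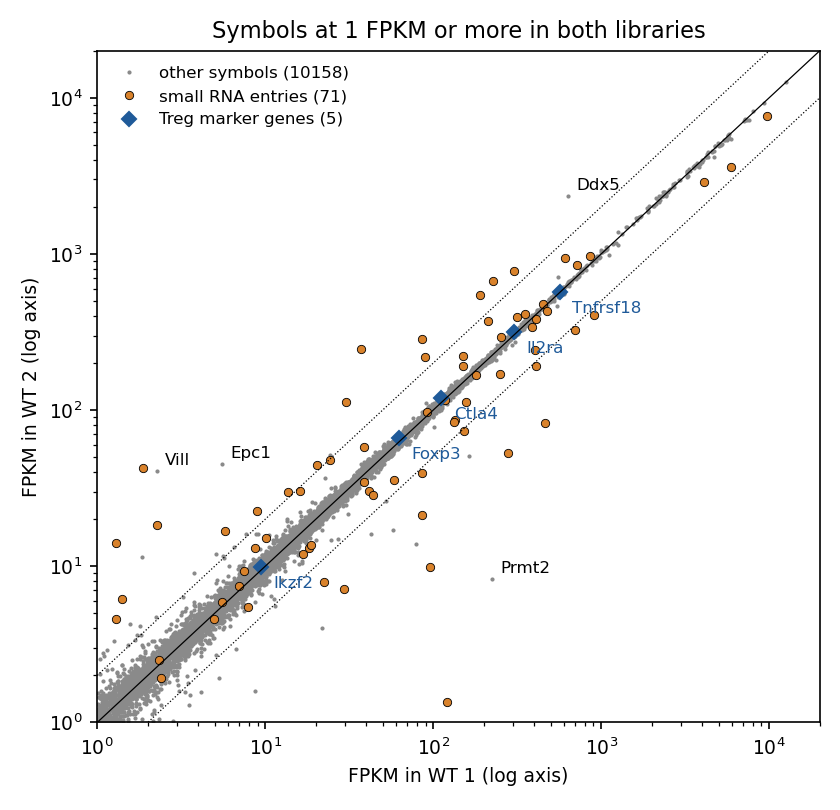
FPKM in WT 2 against FPKM in WT 1 (both log axes) for the 10229 symbols at 1 FPKM or more in both; the solid line is equality and the dotted lines are a 2-fold difference. The 5 Treg markers (diamonds) lie on the line, 28 of the 71 small RNA entries (orange) lie outside the dotted lines, and Ddx5, Vill, Epc1 and Prmt2 are named among the other symbols.

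Entries named for microRNAs, short RNAs that repress transcripts matching their seed, were few and unsteady. Of 527 such entries 480 were listed at 0 in both libraries and 22 reached 1 FPKM, of which 8 were more than 2-fold apart. The library kit named in the labels (TruSeq RNA) is not one for small RNA, so an entry counts fragments on the locus and not the mature microRNA, and 9 of the 22 loci also held another symbol at 1 FPKM or more. The highest were Mir5109 (9742 and 7623 FPKM), Mir762 (5892 and 3626 FPKM, in the locus of Bcl7c) and Mir703 (4106 and 2888 FPKM). Mir1982 (448 and 476 FPKM) shared its locus with Oaz1, Mir3091 (354 and 415 FPKM) with Rps21, and Mir3960 was at 211 and 370.2 FPKM. Of microRNAs known for roles in T cells, named here after their values were seen, Mir155 was at 2.39 and 1.93 FPKM and the joined host entry of the miR-17 cluster at 2.33 and 2.5 FPKM. Mir142 was at 466 and 82.5 FPKM. Their mature sequences in RefSeq are shown for identity, with the seed (bases 2 to 8) in capitals.
mmu-miR-155-5p: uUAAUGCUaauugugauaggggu
mmu-miR-142a-3p: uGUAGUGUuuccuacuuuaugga
mmu-miR-19b-3p: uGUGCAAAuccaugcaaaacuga
The 3 seeds differ, and no level of a mature microRNA was measured.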

How the data were processed

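RNA was extracted from the cultured cells and libraries were made with the TruSeq RNA kit, per the labels' protocols. TopHat aligned the reads to mm9, per the submitters' processing notes; its version is not given in the sources used here, nor are the counter and annotation. The authors deposited 2 tables, each with 1 library labelled WT and 1 labelled MSC KO, in the layout of a Cuffdiff gene test. The values the authors deposited were taken to be FPKM from that layout, as neither labels nor tables name the unit. Whether the tables were normalized together is not stated, so ranks were taken within a library.

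From the 2 WT columns, rows with a symbol and an estimate that had not failed were kept, taking the highest row of a repeated symbol. Of the symbols in both tables, 8 were dropped because their loci did not overlap. The members include 169 joined entries of several genes, 24 symbols that read as dates and were not named, and 652 small RNA entries. No columns were left unmapped. Thresholds were 1, 10 and 100 FPKM in both libraries. With no comparison of conditions, no test was run. Depth came from the smallest step of low values in 32 (WT 1) and 46 (WT 2) genes with a single GENCODE M21 transcript over 2500 bases, matched by name, and 3 fragments were taken as the floor. It covers counting error only. Loci are as the tables give them (mm9). Promoters (250 bases before to 50 after the start) and mature microRNAs are from RefSeq on GRCm38.p6, matched by symbol: 12477 of 21487 members had exactly 1 promoter, and 19 of 22 microRNA entries a mature sequence. CpG and motifs were counted as letters.

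The members, the 51 gene lists by hand, the 13 families by symbol and the naming rule were chosen with earlier results of these data known. The rule took the 5 markers and Msc, up to 6 highest members and up to 4 members under 1 FPKM of each list, the 20 highest symbols, the 5 furthest apart between libraries in each direction on log2(FPKM + 1), and up to 6 microRNA entries. Other genes named, mostly further members of a list, were chosen after their values were seen, and a few genes within the rule are not reported here. Alternatives changed the row choice, thresholds, scaling and pseudocount, and left out small RNA entries or a library. Python 3.11.15 with pandas 2.3.3 and numpy 2.4.6 was used, and the row choice and counts were tested on simulated data.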

Additional observations from a re-analysis of the deposited data

Results flagged for a closer look

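A large signal lay in entries that the tables give no gene symbol, which the levels above leave out. These were 1925 of 24366 entries in WT 1 and 2325 of 24752 in WT 2, and they held 49.9% of all FPKM in WT 1 and 52.2% in WT 2. Most of it was in few and short entries: 85 and 78 of them were at 1000 FPKM or more, with a median locus length of 57 and 56.5 bases, and held 92.6% and 93.4% of the FPKM without a symbol. What these entries are was not tested. Shares of FPKM in the text are of the named entries.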

How the results depend on the processing

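Of 69 alternative values, 58 stayed within the limit set for them (1.5 times for a count, the spread between the 2 libraries for a share or percentile). The other 11 moved beyond it. The symbols listed at 0 in both libraries fell to 9 when entries that the authors had not tested were left out, since nearly all zeros stand in such entries. The median log2 difference of the libraries (0.0722) was 0.0654 on log2(FPKM + 1), 0.0712 on log2(FPKM + 0.1), 0.0552 at 10 FPKM or more, 0.0316 with no filter, 0.0716 without small RNA entries and 0.0705 with each library scaled to the same sum. The share of ribosomal protein genes, 37.5% as a mean, was between 37.3% and 37.7% without 1 library. It was 39.0% without small RNA entries, beyond the spread between the libraries. The count at 1 FPKM or more was 10969 at 0.5 FPKM, 9359 at 2 FPKM and 10485 after such scaling, and between 10366 and 10417 without 1 library. Among marker percentiles 3 of 25 moved beyond the small spread between the libraries, each when small RNA entries were left out, by at most 0.462 points. No paired analysis was possible because one group is described and no groups are compared. Entries of short transcripts rest on few fragments, and with 2 libraries no gene's spread is well known.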

Other observations

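Further gene groups of these cells were read in the same way. Genes of the BCL2 family, both protectors and promoters of cell death, were present in 15 of 18 cases, against 46.2% of all symbols. The effector Bax was highest at 196 and 201 FPKM, with Bak1 at 55.5 and 58.4 FPKM, and the protectors Bcl2l1 (BCL-XL) and Mcl1 were at 79.5 and 79.9 and at 75.2 and 78.7 FPKM, above Bcl2 itself (19.8 and 20.9 FPKM). Bcl2l11 (BIM), the trigger of death after cytokine loss, was at 2.97 and 3.52 FPKM. Of the proteasome, 41 of 43 symbols were present. The inducible catalytic subunits Psmb8 and Psmb9 were at 716 and 729 and at 524 and 554 FPKM, while Psmb10 was at 71.4 and 69.8 FPKM. Their constitutive counterparts were Psmb5 (555 and 711 FPKM), Psmb6 (185 and 188 FPKM) and Psmb7 (322 and 322 FPKM), and Psmb11 of the thymus was at 0.0252 and 0.0308 FPKM. Of 22 chaperone genes 16 reached 100 FPKM, led by Hspa8 (2224 and 2336 FPKM) and Hsp90ab1 (1415 and 1486 FPKM), while the heat-induced Hspa1a and Hspa1b, near-identical copies that can share reads, were at 0.0713 and 0.114 and at 0.491 and 0.357 FPKM.

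Among genes of DNA methylation and Polycomb 17 of 19 were present. Uhrf1 and Dnmt1, which copy methylation at replication, were at 89.5 and 93.7 and at 60.9 and 63.9 FPKM, and the oxidising enzymes were lower, with Tet3 at 4.87 and 5.24 FPKM, Tet2 at 1.44 and 1.72 FPKM and Tet1 at 0.592 and 0.538 FPKM. Ezh2 was at 66.2 and 68.9 FPKM and its counterpart Ezh1 at 8.06 and 7.78 FPKM. Ddit4 (REDD1), a brake on mTOR, was the highest of 18 genes of growth and energy sensing at 346 and 352 FPKM, and Mtor differed between the libraries, at 11.3 and 6.19 FPKM. All 8 GIMAP genes of lymphocyte survival were present, led by Gimap1 at 80.6 and 83.4 FPKM. Dntt, the template-free polymerase of developing lymphocytes, was at 5.21 and 5.35 FPKM, while Rag1 was at 0.0284 and 0.0125 FPKM and Ptcra at 0.418 and 0.279 FPKM. Xist, expressed from the inactive X chromosome, was at 17 and 19.8 FPKM, and the Y-linked Ddx3y and Eif2s3y were at 0 and 0.0435 and at 0.0206 and 0.0917 FPKM. Of 102 snoRNA entries 41 were at 1 FPKM or more in both libraries, and 19 of these were more than 2-fold apart.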
